A study of Mus musculus with 21 samples.

Results

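The CD209 family of the mouse comprises C-type lectins related to human DC-SIGN, and its genes Cd209a, Cd209b, Cd209c, Cd209d and Cd209e are described here in dendritic cells (DCs) sorted for a reporter of Aire. The 5 genes were taken by symbol from a count table of 55471 genes. Aire, the autoimmune regulator, is a transcriptional regulator best known from the thymic medulla. Per the labels all mice were male (the libraries numbered 2 go against this, as given before the results), on the C57BL/6 strain and 6 weeks old, and all carried the reporter knock-in allele AGF-KI, either over a normal allele (AGF-KI/+, here KI/+) or as AGF-KI/-, which the labels name AireKO. RNA was sequenced from 21 libraries in 7 groups of 3 biological replicates.

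The lymph node (LN) groups were AGF+ cells of KI/+ mice, AGF+ cells of AireKO mice, AGF- cells of KI/+ mice and AGF- cells of AireKO mice, all within a gate of CD45+CD11c+MHCII+ cells. The bone marrow (BM) groups were AGF+ cells of KI/+ mice, AGF+ cells of AireKO mice and a DC population of KI/+ mice, named total DC in the sample titles but AGF- in the description of the design. The AGF+ marrow cells came from a B220-CD24+ gate with little or no CD11b, whereas the total DCs came from a B220-CD11c+MHCII+ gate, so that reporter and gate cannot be told apart in marrow. A group without the reporter allele was not analysed here. AGF+ marks cells by the reporter, so AireKO AGF+ cells are defined by the knock-in allele and not by Aire protein.

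C-type lectins of this family are type II membrane proteins that bind mannose- and fucose-bearing glycans through a carbohydrate recognition domain in the presence of calcium. DC-SIGN on human DCs binds ICAM-2 and ICAM-3 and takes up glycan-coated pathogens. The mouse genes arose by duplication, and their products differ in the cells that carry them. Cd209a (CIRE, SIGNR5) is known from CD11b+ DCs and from monocyte-derived DCs, Cd209b (SIGNR1) from macrophages of the splenic marginal zone and the lymph node medulla, and Cd209d (SIGNR3) from myeloid cells, where it is linked to mycobacterial recognition. Cd209c (SIGNR2) encodes a form described as secreted, and Cd209e (SIGNR4) is less studied.

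The 5 genes lie on the minus strand of chromosome 8 (GRCm38, GENCODE vM21) within 211.4 kb, in the order Cd209a, Cd209e, Cd209d, Cd209b, Cd209c from low to high coordinate. Cd209a (ENSMUSG00000031494) spans 3743397 to 3748984, Cd209e (ENSMUSG00000040197) spans 3847965 to 3854309 and Cd209d (ENSMUSG00000031495) spans 3871824 to 3878555. Cd209b (ENSMUSG00000065987) spans 3917655 to 3926844 and Cd209c (ENSMUSG00000040165) spans 3940222 to 3954746. No other annotated gene overlaps any of them. Cd209f and Cd209g lie farther along the chromosome, from 4102787 to 4105835 and from 4134098 to 4137707, and are reported only as levels.

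Because the members are duplicates, the part of their messages that reads could share was measured on the annotated transcripts. Pairs of coding sequences were 65.1% to 73.9% identical, and the longest identical run in any pair was 17 to 26 bases. Of the windows of 50, 100 and 150 bases in each member's transcript, 0 occurred exactly in another Cd209 gene. The most alike 60 bases of the coding sequences, at 83.2% mean identity, show how the members differ even there. They are given 5′ to 3′ from the GENCODE vM21 transcripts, with capitals for each base that differs from Cd209a in the alignment, of which there are 9 in Cd209b, 12 in Cd209c, 14 in Cd209d and 13 in Cd209e.
Cd209a: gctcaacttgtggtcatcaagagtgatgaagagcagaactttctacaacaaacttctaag
Cd209b: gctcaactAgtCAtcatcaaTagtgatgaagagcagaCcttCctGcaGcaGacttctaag
Cd209c: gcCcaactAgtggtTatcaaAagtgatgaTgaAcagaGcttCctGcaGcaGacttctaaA
Cd209d: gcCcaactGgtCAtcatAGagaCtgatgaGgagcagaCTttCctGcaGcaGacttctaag
Cd209e: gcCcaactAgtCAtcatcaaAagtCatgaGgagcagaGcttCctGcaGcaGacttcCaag

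Cd209c differed from the others in a different way. Of its 50-base windows 22.39% also occurred in transcripts outside the family, in 36 genes, and this share was 6.75% at 100 bases and 0.86% at 150 bases. How multiply mapped reads were counted is not stated in any label or header read here, so the level of Cd209c carries that uncertainty. For Cd209a, Cd209b, Cd209d and Cd209e the share was 0 at each of these lengths.

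The RefSeq promoters (GRCm38.p6) of Cd209a, Cd209b and Cd209e share the 11 bases ATAAAAGCTGT, which are shown because they are the longest stretch these promoters have in common. The stretch was chosen after the sequences were seen. It is in capitals in the gene's sense direction, at chr8:3748938-3748967, chr8:3926823-3926852 and chr8:3854298-3854327.
Cd209a: aggtggcaaATAAAAGCTGTagtctctgtc
Cd209b: cttcaggggATAAAAGCTGTagtctccagc
Cd209e: gggtggcagATAAAAGCTGTtgttctaagc

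The first of these 11 bases lies 26 bases past the annotated start of Cd209a, and at -2 and -32 relative to the starts of Cd209b and Cd209e. Of 32851 promoters of 300 bases, searched on both strands, 9 hold the stretch (0.0274%). It was not in the windows of Cd209c and Cd209d. The window of Cd209c begins at 3946814, inside the gene's span of 3940222 to 3954746, so a start nearer to 3954746 was not searched. Longer runs join pairs of members. Cd209a and Cd209b share 17 bases, the longest run of any pair, which start with the stretch at 26 and -2. Cd209b shares 12 bases with Cd209d that start at -229 in both, and 12 with Cd209e that start at -3 and -33. Cd209a and Cd209d share 12 bases that start at -9 and -70. Cd209d and Cd209e share 12 that start at -70 and -85, and Cd209a and Cd209e 14 that start at -9 and -85. Any link between these shared runs and the levels of the genes was not tested. The letters CCGGAAG, an ETS-type core that does not overlap the stretch, were found in the promoters of Cd209a, Cd209b and Cd209e and in 8.86% of all promoters. A PU.1-type core, GAGGAA, was found in Cd209d alone among the members and in 28.3% of all promoters. These matches are descriptions of the sequence.

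Libraries held 4164451 to 6055097 counts, so 3 counts amounted to 0.456 to 0.764 CPM (counts scaled to a common library size with TMM factors), the level that a count of 0 in a library still allows, for counting error only. Ptprc (CD45), H2-Ab1 and Cd74 (MHC class II presentation) stood at 435 CPM or more in every library. Itgax (CD11c) ran from 12.5 to 128 CPM in marrow AGF+ cells and from 142 to 600 CPM in the other sorts. The 7 libraries numbered 2, 1 in each group, carried Xist at 2022 to 3994 CPM and Y-linked genes at 0 to 0.766 CPM in sum, whereas the other 14 had 0 to 31.1 CPM and 329 to 567 CPM, although the labels give males throughout. Results are therefore also given without the libraries numbered 2 where they change. Aire stood at 79.4 to 131 CPM in KI/+ AGF+ cells and at 11.5 to 26.5 CPM in AireKO AGF+ cells. In bulk RNA, fewer cells with a transcript and less transcript per cell cannot be told apart.

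In lymph node all 5 members were lower in AGF+ cells than in their AGF- counterparts, in both genotypes, and the 3 members that could be tested in marrow were lower in AGF+ cells than in total DCs. Cd209b and Cd209d were mainly lymph node transcripts, whereas Cd209a, Cd209c and Cd209e were also well detected in total marrow DCs. No member passed the test between AireKO and KI/+ cells of any sort. The plot of levels in each library shows these patterns.

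**Figure D1:**
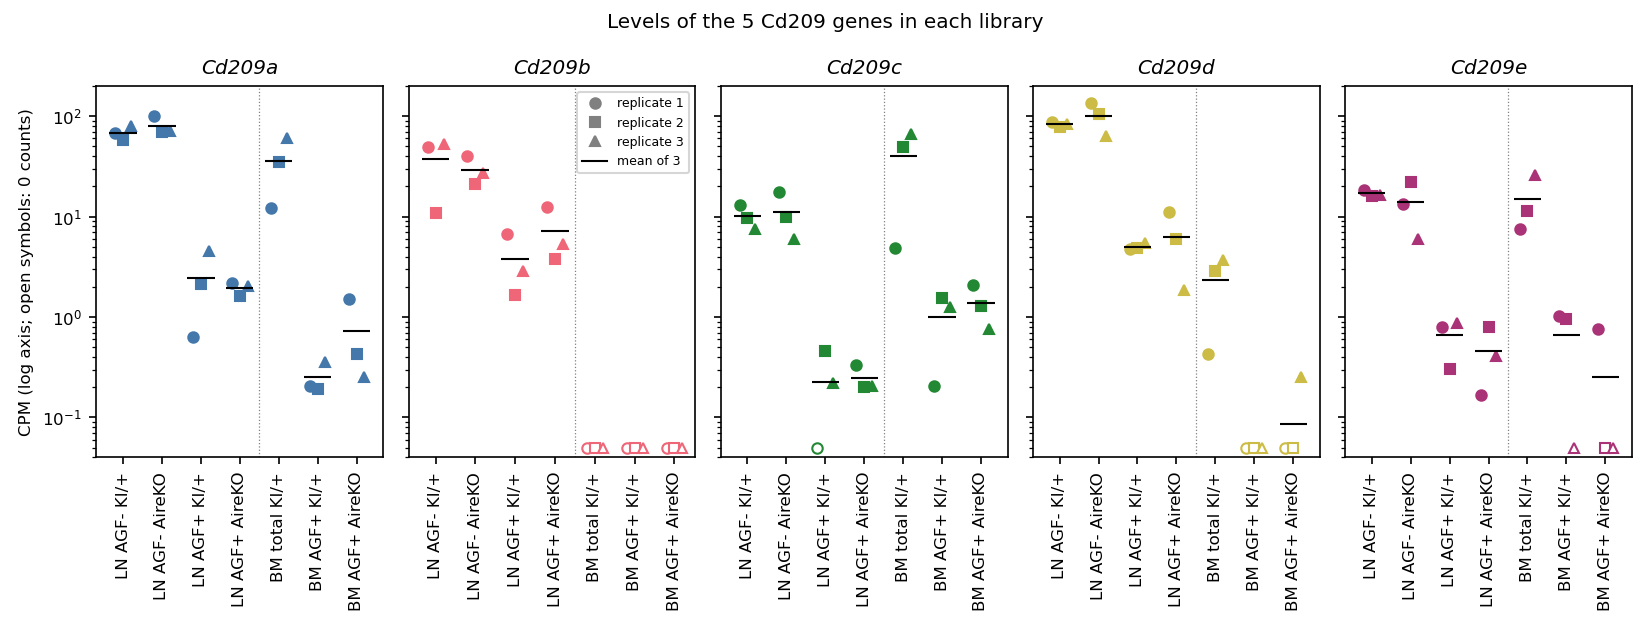
CPM of each Cd209 gene (log axis) in each library, by group of 3 replicates. Symbols mark replicate numbers, black lines mark means, and open symbols at the foot of the axis mark libraries with 0 counts. Within each genotype the lymph node AGF- libraries lie above the AGF+ libraries in every panel, and Cd209b is at 0 in all 9 marrow libraries.

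Cd209a, the member best known from DCs, stood at 68.1, 57.7 and 79.4 CPM in the 3 lymph node AGF- libraries of KI/+ mice and at 101, 68.9 and 71.1 CPM in those of AireKO mice. The AGF+ libraries had 0.631, 2.13 and 4.58 CPM for KI/+ mice and 2.17, 1.61 and 2.05 CPM for AireKO mice. Every AGF+ library thus lay far below every AGF- library, in each genotype. The fitted log2 fold change of AGF+ against AGF- cells was -4.89 ± 0.36 (SE, as for all fold changes below; 3 libraries against 3) in KI/+, a 29.7-fold difference, with adjusted p = 1.6e-06 by edgeR's quasi-likelihood test with Benjamini-Hochberg adjustment over all genes. In AireKO it was -5.35 ± 0.38, or 40.7-fold (edgeR adjusted p = 6.9e-07). The KI/+ AGF+ libraries were uneven, and without replicate 3 the KI/+ value was -5.60.

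Cd209d, which encodes SIGNR3, had the highest level per kilobase of exon in lymph node cells. It stood at 87.7, 78.1 and 83.9 CPM in KI/+ AGF- cells and at 134, 106 and 63.9 CPM in AireKO AGF- cells. The AGF+ values were 4.73, 4.86 and 5.45 CPM for KI/+ mice and 11, 6.02 and 1.84 CPM for AireKO mice. The KI/+ replicates were close to each other in both sorts, the AireKO replicates were spread in both, and the sorts did not overlap in either genotype. The log2 fold change was -4.06 ± 0.40 (edgeR adjusted p = 1.4e-05) in KI/+ and -3.96 ± 0.39 (edgeR adjusted p = 8.5e-06) in AireKO, 16.6-fold and 15.6-fold. Without AGF+ replicate 1 the AireKO value was -4.68.

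Cd209b, the SIGNR1 gene known from marginal zone and medullary macrophages, showed the smallest sort difference. Its levels were 49.7, 10.9 and 52.8 CPM in KI/+ AGF- cells and 39.8, 21.1 and 27.4 CPM in AireKO AGF- cells. The AGF+ values were 6.78, 1.67 and 2.84 CPM for KI/+ mice and 12.5, 3.81 and 5.33 CPM for AireKO mice. In each of the 4 lymph node groups the library numbered 2 was the lowest, a pattern held by 2.44% of the 15884 genes tested there (2.61% had it as the highest). Other members did not have it, as number 2 was lowest in 3 groups for Cd209a, 2 for Cd209e and 1 each for Cd209c and Cd209d.

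The Cd209b sort difference was -3.30 ± 0.61 on the log2 scale in KI/+ (9.88-fold, edgeR adjusted p = 0.00173) and -1.99 ± 0.57 in AireKO (3.98-fold, edgeR adjusted p = 0.0196). The difference between these, 1.31 ± 0.84 on the log2 scale, did not pass the interaction test (95% interval -0.48 to 3.11, edgeR adjusted p = 1). The AireKO call rested on single libraries. It was lost without AGF+ replicate 2 (-1.69, edgeR adjusted p = 0.0870), without AGF+ replicate 3 (-1.81, edgeR adjusted p = 0.0734) and without AGF- replicate 1 (-1.71, edgeR adjusted p = 0.0578), whereas without AGF+ replicate 1 the value was -2.68. In KI/+ the value without AGF+ replicate 1 was -4.10.

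Cd209e, the SIGNR4 gene, ran at a lower level with the same order of sorts. KI/+ AGF- cells had 18.6, 15.9 and 16.5 CPM and AireKO AGF- cells had 13.4, 22.3 and 6.02 CPM. AGF+ cells were near the floor of detection, with 0.788, 0.304 and 0.873 CPM for KI/+ mice and 0.167, 0.803 and 0.410 CPM for AireKO mice, from 11 and 7 counts in all. Its log2 fold change was -4.70 ± 0.52 in KI/+ (edgeR adjusted p = 3.5e-05) and -4.91 ± 0.57 in AireKO (edgeR adjusted p = 3.2e-05). Without AGF+ replicate 2 the AireKO value was -5.55.

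Cd209c, the SIGNR2 gene, was almost absent from lymph node AGF+ cells. Only 4 counts were found in the 3 KI/+ libraries, at 0, 0.456 and 0.218 CPM, and 4 in the AireKO libraries, at 0.334, 0.201 and 0.205 CPM. The AGF- values were 13.1, 9.69 and 7.61 CPM for KI/+ mice and 17.7, 10.0 and 6.02 CPM for AireKO mice. The pooled counts were 44.1 times lower in AGF+ cells of KI/+ mice, with a 95% counting interval of 16.9 to 164 that covers counting error only. The fitted log2 fold changes were -5.33 ± 0.62 in KI/+ (edgeR adjusted p = 4.6e-05) and -5.36 ± 0.61 in AireKO (edgeR adjusted p = 2.9e-05). With so few counts the KI/+ value moved to -4.74 without AGF+ replicate 1, to -6.45 without AGF+ replicate 2 and to -6.48 without the libraries numbered 2.

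Over the family, 5 of 5 members were called lower in the KI/+ comparison, a call that 11% of the 15884 genes tested received, and 5 of 5 in the AireKO comparison, against a background of 13.3%. All 5 members had AGF+ and AGF- values without overlap in each genotype, which was so for 38.4% of all genes tested in KI/+ and for 39.6% in AireKO. All 5 were also called lower in both genotypes without the libraries numbered 2. By size of the KI/+ fold change, Cd209c held rank 71 from the lowest of 15884 genes, Cd209a rank 86, Cd209e rank 103, Cd209d rank 156 and Cd209b rank 230. Libraries of the same replicate number deviated together within a tissue, as given below. The titles give the numbers but no pairing, and the tests above treat the libraries as unpaired. Within numbers, AGF- exceeded AGF+ cells by 15.4 to 18.5 times for Cd209d in KI/+, while the Cd209a ratio spanned 17.3 to 108.

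**Figure D2:**
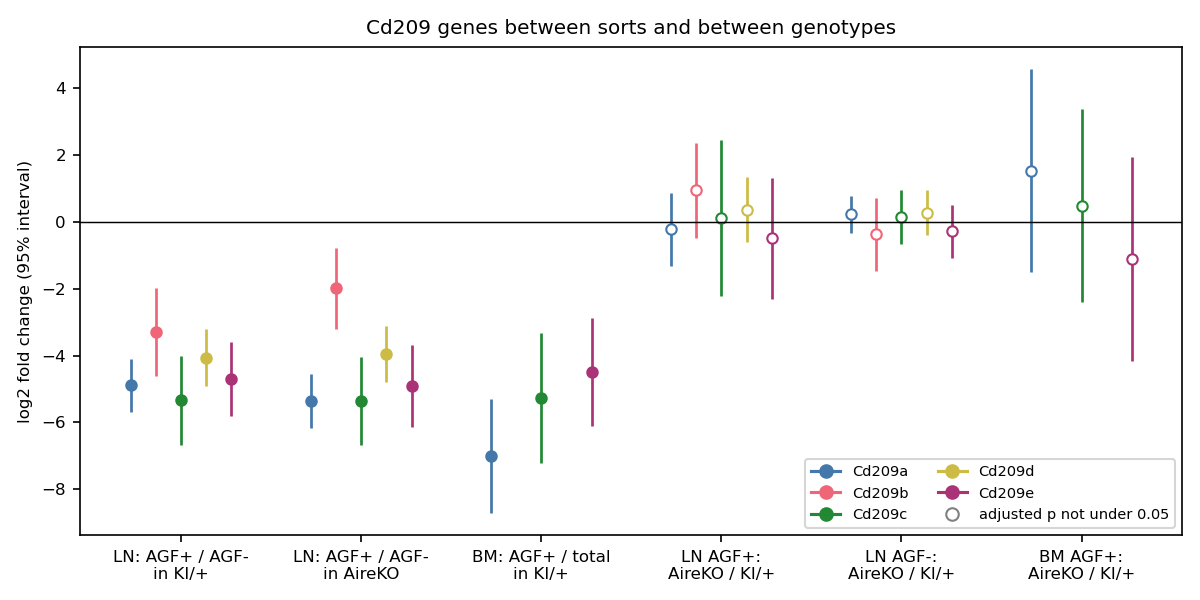
Log2 fold changes of the Cd209 genes (dots) with 95% intervals (lines) between sorts (left 3 comparisons) and between genotypes (right 3). Filled dots have an edgeR adjusted p under 0.05. The sort differences lie between -6.99 and -1.99, and every genotype interval includes 0. Cd209b and Cd209d could not be tested in marrow.

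Genotype was then compared within each sort. In lymph node AGF+ cells 0 of 5 members were called by edgeR between AireKO and KI/+, where 0.0126% of all genes (2 genes) were, and 0 of 5 had an unadjusted p under 0.05. Values without overlap were found for 0 of 5 members (background 10.3%). In AGF- cells 0 of 5 were called against a background of 0.00630% (1 gene), again with 0 at an unadjusted p under 0.05, and 0 of 5 were without overlap (background 8.95%). These backgrounds moved with single libraries, to 7 genes without AGF+ KI/+ replicate 2 and to 89 genes without AGF- AireKO replicate 2. The intervals show what the design could have seen. In AGF- cells they were narrowest for Cd209a, from -0.35 to 0.78 on the log2 scale, and for Cd209d, from -0.41 to 0.96. Cd209b gave -0.37 with an interval of -1.47 to 0.72, Cd209c gave 0.15 (-0.66 to 0.96) and Cd209e gave -0.29 (-1.08 to 0.49). In AGF+ cells, with fewer counts, they ran from -1.33 to 0.87 for Cd209a, from -0.48 to 2.36 for Cd209b, from -2.21 to 2.44 for Cd209c, from -0.61 to 1.34 for Cd209d and from -2.32 to 1.32 for Cd209e. DESeq2's Wald test and limma voom also called 0 of 5 in both sorts. In the interaction of sort and genotype 0 of 5 members passed with edgeR, DESeq2 or voom (background 0.00630% with edgeR), and 0 of 5 had an unadjusted p under 0.05. In the interaction of tissue and genotype over AGF+ cells, 0 of the 3 members with counts in all groups passed with any of these tools (background 0% with edgeR), again with 0 at an unadjusted p under 0.05.

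In bone marrow, total DCs carried Cd209a, Cd209c and Cd209e, and AGF+ cells carried little of any member. Cd209a stood at 12.2, 34.8 and 60.0 CPM in total DCs and at 0.204, 0.191 and 0.357 CPM in KI/+ AGF+ cells, a log2 fold change of -6.99 ± 0.78 (edgeR adjusted p = 4.4e-05). That placed it at rank 5 from the lowest of the 15503 genes tested. Only 4 counts lay behind the AGF+ values, and the pooled counts were 143 times lower (95% counting interval 55.7 to 529).

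Cd209c had its highest group mean in total marrow DCs, at 4.91, 49.4 and 66.0 CPM, against 0.204, 1.53 and 1.25 CPM in KI/+ AGF+ cells. Its log2 fold change was -5.27 ± 0.88 (edgeR adjusted p = 6.6e-04). Cd209e stood at 7.46, 11.5 and 25.9 CPM in total DCs and at 1.02, 0.957 and 0 CPM in AGF+ cells, a change of -4.49 ± 0.73 (edgeR adjusted p = 5.3e-04). For all 3 genes every total DC library lay above every AGF+ library. Leaving out total DC replicate 3 moved Cd209a to -6.39 and Cd209e to -3.83, and leaving out AGF+ replicate 3 moved Cd209e to -3.87.

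Cd209d was scarce in marrow, at 0.427, 2.87 and 3.67 CPM in total DCs and 0 counts in the 3 KI/+ AGF+ libraries. Set against a floor of 3 counts over the group, as for every bound below, it was at least 12.4-fold lower in AGF+ cells. It did not pass the filter on low counts there and was not tested. Cd209b had 0 counts in all 9 marrow libraries. Of the 3 members tested, 3 were called lower, where 21.6% of genes were, and for 4 of 5 members the groups did not overlap, as for 51.5% of all genes tested.

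The 3 total DC libraries differed from each other more than the lymph node libraries of a group did. Summed over the family they held 25.0, 98.6 and 156 CPM, and replicate 1 was the lowest for each of the 4 members detected. The AGF- lymph node libraries of KI/+ held 237, 172 and 240 CPM. Summed markers of other cells also differed between these libraries. Those of monocytes and monocyte-derived DCs stood at 1430, 1533 and 907 CPM in the total DC libraries, those of cDC2 at 2637, 2876 and 2691 CPM, and those of macrophages at 762, 1009 and 797 CPM. Replicate 1 was thus the lowest for cDC2 and macrophages, though not for monocytes. The part of these cells in the spread of the family was not tested.

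Between genotypes of marrow AGF+ cells, 0 of the 3 members tested were called by edgeR (background 0.0129%), with 0 at an unadjusted p under 0.05, and 0 of 5 had values without overlap (background 6.69%). In AireKO cells Cd209a stood at 1.50, 0.427 and 0.255 CPM, Cd209c at 2.07, 1.28 and 0.764 CPM and Cd209e at 0.751, 0 and 0 CPM. Cd209d had 1 count in all. The intervals were wide, from -1.49 to 4.56 for Cd209a, from -2.40 to 3.36 for Cd209c and from -4.15 to 1.95 for Cd209e, so changes of several fold were not detectable at this depth. DESeq2's Wald test and limma voom also called 0.

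The tissues were compared within matching sorts. These comparisons share libraries with those above, and the marrow gates differ from the lymph node gate. Against total marrow DCs, lymph node AGF- cells of KI/+ mice were higher in Cd209d by 5.13 ± 0.47 on the log2 scale (34.9-fold, edgeR adjusted p = 4.8e-08) and in Cd209b at least 183-fold (edgeR adjusted p = 6.9e-06). Cd209a was higher by 0.93 ± 0.37 (edgeR adjusted p = 0.0382), though the values of the groups overlapped. Cd209c went the other way, at -1.99 ± 0.56 (3.97-fold lower in lymph node, edgeR adjusted p = 0.00473), again with overlapping values. Cd209e did not pass (0.18 ± 0.46, 95% interval -0.77 to 1.14, edgeR adjusted p = 0.753). The higher calls covered 3 of 5 members against a background of 28.8% and the lower calls 1 of 5 against 27.3%. Groups without overlap were found for 2 of 5 members, Cd209b and Cd209d, and for 60.0% of all genes.

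The Cd209a and Cd209c calls between these tissues rested on the spread of the libraries. Without the libraries numbered 2 neither passed (edgeR adjusted p = 0.153 and 0.0984), and 2 of 5 members were called. The Cd209a call was also lost without AGF- replicate 1 (edgeR adjusted p = 0.0650), AGF- replicate 3 (0.0988 by edgeR), total DC replicate 1 (0.171 by edgeR) or total DC replicate 2 (0.0944 by edgeR), with only the groups compared (0.0671 by edgeR) and with DESeq2 (adjusted p = 0.163). Without total DC replicate 3 its value was 1.52.

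AGF+ cells showed the same division. In KI/+ mice Cd209b was at least 20.1-fold higher in lymph node than in marrow AGF+ cells (edgeR adjusted p = 0.00300) and Cd209d at least 26.1-fold higher (edgeR adjusted p = 8.1e-05). In AireKO mice Cd209b was at least 35.2-fold higher (edgeR adjusted p = 7.0e-04). For Cd209d in AireKO mice, 105 counts stood against 1, a ratio of 92.3 with a counting interval of 16.2 to 3680 (edgeR adjusted p = 8.3e-05).

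Cd209a was higher in lymph node AGF+ cells of KI/+ mice by 3.05 ± 1.02 (edgeR adjusted p = 0.0161). That call was lost without lymph node replicate 3 (2.33, edgeR adjusted p = 0.0911), without marrow replicate 2 (2.88, edgeR adjusted p = 0.0517) and without the libraries numbered 2 (2.94, edgeR adjusted p = 0.113). In AireKO the Cd209a value was 1.29 ± 0.87 (edgeR adjusted p = 0.224). Cd209c gave -2.04 ± 1.40 in KI/+ and -2.39 ± 1.35 in AireKO (edgeR adjusted p = 0.227 and 0.146). DESeq2 called the AireKO value of Cd209c (-2.51, adjusted p = 0.0280), and without the filter edgeR called it in both genotypes (-2.06 in KI/+, adjusted p = 0.0110, and -2.40 in AireKO, adjusted p = 0.00155). Cd209e gave -0.01 ± 1.01 and 0.60 ± 1.34 (0.993 and 0.732 by edgeR). In all, 3 of 5 members were called higher in KI/+ (background 27.2%) and 2 of 5 in AireKO (background 25.7%). The values did not overlap for 3 of 5 members in KI/+ (background 61.4%) and for 4 of 5 in AireKO (background 64.5%). The reporter sort difference of Cd209a was smaller in lymph node than in marrow by 2.12 ± 1.14 on the log2 scale, but this did not pass the interaction test (95% interval -0.26 to 4.49, edgeR adjusted p = 0.211). Of the 3 members with counts in all groups, 0 passed it with edgeR, DESeq2 or voom and 0 had an unadjusted p under 0.05, while 21% of all genes passed with edgeR. Without total DC replicate 1 Cd209a passed, at 2.52 (edgeR adjusted p = 0.0435).

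Levels were ordered over the 7 groups for each gene. For Cd209a the means ran from 80.2 CPM in AireKO AGF- and 68.4 in KI/+ AGF- lymph node cells through 35.7 in total marrow DCs to 2.45 and 1.94 in lymph node AGF+ cells and 0.728 and 0.251 in marrow AGF+ cells. Its neighbours overlapped except between total DCs and lymph node AGF+ cells and between lymph node and marrow AGF+ cells. Cd209d ran from 101 and 83.2 CPM in lymph node AGF- cells through 6.30 and 5.02 in lymph node AGF+ cells to 2.32 in total marrow DCs. The total DCs did not overlap the KI/+ lymph node AGF+ cells. They did overlap the AireKO ones, where replicate 3 was at 1.84 CPM against 3.67 CPM in total DC replicate 3. Cd209c alone had total marrow DCs at the top, with 40.1 ± 31.6 CPM (SD, n = 3), although the range overlapped that of AireKO AGF- lymph node cells at 11.3 ± 5.95 CPM. For Cd209e the first 3 groups, KI/+ AGF- lymph node cells (17 CPM), total marrow DCs (14.9) and AireKO AGF- lymph node cells (13.9), all overlapped their neighbours.

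To compare genes with each other, CPM was divided by the exon length. In KI/+ AGF- lymph node cells Cd209d stood at 90.5 ± 5.24 CPM per kb (SD, n = 3), Cd209a at 43.2 ± 6.86, Cd209b at 17.9 ± 11, Cd209e at 9.45 ± 0.793 and Cd209c at 5.07 ± 1.39. Of the summed level of the family per kb, Cd209d made up 54.9% ± 5.04 in those cells and 59.6% ± 6.98 in KI/+ AGF+ cells, even though its level was 16.6-fold lower in the latter. Cd209b made up 10.2% ± 5.71 and 19.1% ± 13.7, and Cd209a 26.0% ± 1.95 and 16.1% ± 11.3. In total marrow DCs the makeup was another one, with Cd209a at 44.6% ± 6.73, Cd209c at 32.6% ± 14.2, Cd209e at 18.5% ± 8.65 and Cd209d at 4.39% ± 1.20. No test was made on these shares.

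**Figure D3:**
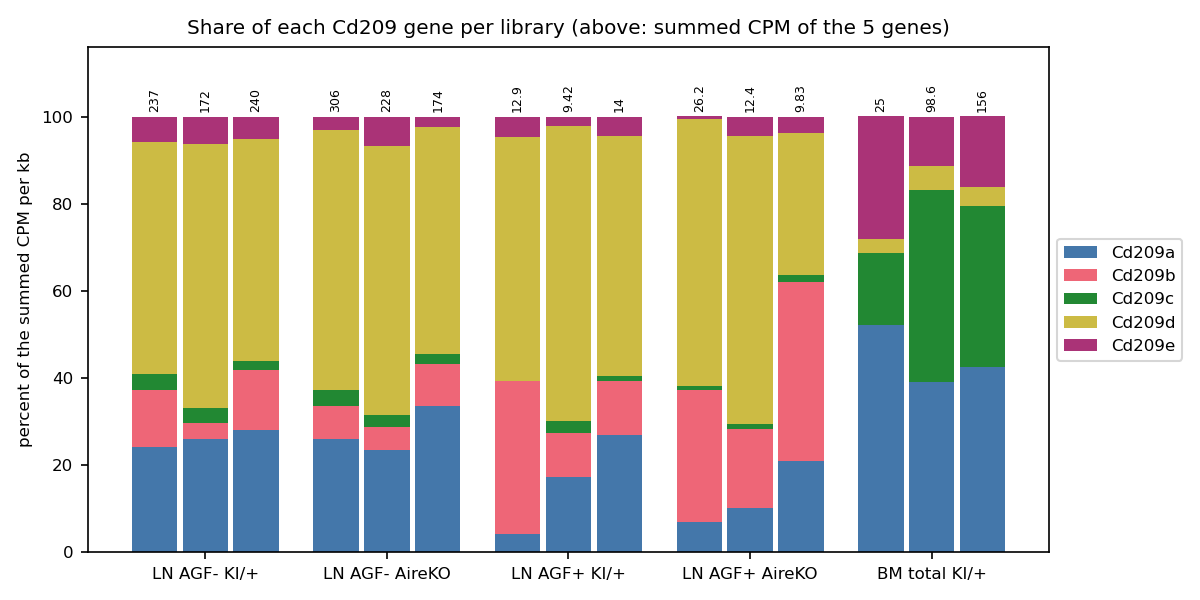
Share of each Cd209 gene in the summed CPM per kb of the family, 1 bar per library, replicates 1 to 3 from left to right in each group. Numbers above the bars are the summed CPM of the 5 genes. Cd209d is the widest segment in 11 of the 12 lymph node libraries, Cd209b being wider in AireKO AGF+ replicate 3, and Cd209a, Cd209c and Cd209e fill most of the total marrow DC bars. Marrow AGF+ groups, with few counts, are not drawn.

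Likeness of the members across the 21 libraries was measured as Pearson's r of log2(CPM + 1). Libraries share groups, tissue and library size, so r is a description. Cd209a and Cd209e had r = 0.942, Cd209c and Cd209e 0.884, Cd209a and Cd209c 0.837, and Cd209b and Cd209d 0.928. Cd209a and Cd209d had 0.825, about that of Cd209a and Cd209c, so the pairs did not divide cleanly. Cd209d and Cd209e had r = 0.697, Cd209a and Cd209b 0.635, Cd209b and Cd209e 0.480, Cd209c and Cd209d 0.456 and Cd209b and Cd209c 0.191. Against 10451 other well-detected genes, Cd209a was the gene of rank 3 in likeness to Cd209e.

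The gene most like Cd209a was Arhgap26, at r = 0.976, followed by Cd300ld (0.966) and Etv5 (0.961). Cd209d was closest to Sla (0.979), Clec9a (0.976), a lectin of cDC1, and Ssh2 (0.973). Xcr1, a chemokine receptor of cDC1, was at 0.967, followed by Zfp36l2 (0.966), Stk10 (0.964), Dusp7 (0.963) and Sirpb1a (0.962). Cd209b was closest to Lyz1 (0.965), Sox13 (0.965) and Rab7b (0.963). Nr1d1, Otulinl and the fractalkine receptor gene Cx3cr1 were each at 0.962, and Krt80 and Xcr1 each at 0.956. Cd209c was closest to Rab3il1 (0.937), Tbl1xr1 (0.926) and Ptpn7 (0.925). Cd209e was closest to Sat1 (0.954) and Dgkh (0.951). With Spearman's rank correlation in place of Pearson's r, 2, 1, 2, 0 and 1 of the 8 closest genes of Cd209a, Cd209b, Cd209c, Cd209d and Cd209e were kept, so most of these names depend on the measure of likeness.

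Clec9a was picked above for its likeness to Cd209d over these same libraries. A fall in AGF+ cells was therefore set by that choice, and its values are a description only. Its mean was 40.9 CPM in KI/+ AGF- lymph node cells and 2.60 CPM in KI/+ AGF+ cells, and 0.461 CPM in total marrow DCs. It fell by 3.95 on the log2 scale in AGF+ cells (SE 0.38, edgeR adjusted p = 1.2e-05). Over the 10 cDC1 markers, which include Clec9a and Xcr1, 6 were lower in lymph node AGF+ cells of KI/+ mice and 0 higher. The median was -1.16 against 0.01 over all genes tested. In AireKO 6 of 10 were lower and 1 higher, and in marrow 2 of 8 tested were lower and 1 higher. Of all genes tested, 11% were called lower in lymph node of KI/+ mice, 13.3% in AireKO and 21.6% in marrow.

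Markers of other myeloid cells moved with the sort as well. The counts of list genes called lower in this and the next paragraphs stand beside 11% of all genes in lymph node of KI/+ mice, 13.3% in AireKO and 21.6% in marrow. Beside the counts called higher, 3349 of 15884 genes were called in lymph node of KI/+ mice, 1746 of them lower and the rest higher. In marrow 6881 of 15503 were called, 3350 of them lower and the rest higher. In lymph node of AireKO mice 2114 of 15884 were called lower. The number called higher there is not given, so AireKO counts called higher stand without a background. With 1 library left out at a time, 2874 to 4126 genes were called there in either direction. Of 16 markers of monocytes and monocyte-derived DCs, 12 were lower in KI/+ AGF+ cells and 0 higher, with a median of -2.02, and their summed level was 448 to 585 CPM in AGF+ and 2300 to 2444 CPM in AGF- libraries. Ccr2, a monocyte chemokine receptor, was at -4.65 ± 0.43 (edgeR adjusted p = 8.7e-06) and Ly6c2 at -5.90 ± 0.71 (edgeR adjusted p = 6.3e-05). In AireKO 16 of 16 were lower. Their part in the Cd209 differences was not tested.

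Markers of lymph node and marginal zone macrophages, cells known for Cd209b, were lower for 5 of 12 tested in KI/+ (median -1.36) and 6 of 12 in AireKO, with 0 higher in each. Their summed level was 123 to 163 CPM in KI/+ AGF+ and 307 to 386 CPM in KI/+ AGF- libraries. The scavenger receptor gene Marco stood at 9.99, 1.41 and 10.1 CPM in the KI/+ AGF- libraries, low in the same library as Cd209b, and at 1.26, 0.608 and 1.09 CPM in AGF+ cells (-2.84 ± 0.74, edgeR adjusted p = 0.0141). Siglec1, another defining marker, did not pass in KI/+ (-0.55 ± 0.63, edgeR adjusted p = 0.591). Vsig4 was at 0 in all 6 lymph node AGF+ libraries and at no more than 0.222 CPM in AGF- libraries. Marco was lowest in number 2 in 3 of the 4 lymph node groups. The property of being lowest in number 2 in all 4 groups, held by 2.44% of all genes, was shared with Cd209b by 0 of the 14 macrophage genes. It was held by 3 of 10 T and NK cell markers (Cd3d, Nkg7 and Lck) and 1 of 10 plasmacytoid DC markers (Runx2). Among lists described below, it was also held by 1 of 16 cDC2 markers (S100a4) and 1 of 20 genes of lectin receptor signalling (Ptpn6). Of 19 genes beside the cluster 2 held it (Retn and Camsap3). The part of macrophages or of the other cell types in the Cd209b values was not tested.

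Lymphatic and sinus endothelial markers were lower for 3 of 6 tested in KI/+, with summed levels of 30.1 to 34.9 CPM in AGF+ and 99.9 to 131 CPM in AGF- libraries. The lower ones were Pecam1 (-1.81 ± 0.13, edgeR adjusted p = 1.5e-06), Cdh5 (-4.15 ± 0.81, edgeR adjusted p = 0.00250) and Clec4g (given with the neighbours of the cluster). Cdh5, vascular endothelial cadherin, stood at 14.2, 3.43 and 14.2 CPM in the KI/+ AGF- libraries, lowest in number 2 as Cd209b was there. In KI/+ AGF+ cells it stood at 0.473, 0.608 and 0.654 CPM, where number 2 was not the lowest. Being lowest in number 2 in all 4 lymph node groups was held by 0 of the 10 endothelial genes. Stab2 did not pass (-1.16 ± 0.56, edgeR adjusted p = 0.166). Of the lymphatic markers, Lyve1 was at most 0.654 CPM and Prox1 at most 2.94 CPM in any lymph node library. The part of endothelial cells in the Cd209 differences was not tested. Of B cell markers 9 of 10 and of T and NK cell markers 9 of 10 were lower in KI/+ AGF+ cells, and of plasmacytoid DC markers 5 of 10 were lower and 1 higher. In contrast, of 10 markers of mature DCs 0 were lower and 1, Ebi3, was higher (1.19 ± 0.22, edgeR adjusted p = 0.00154). Among 16 cDC2 markers 7 were lower and 2 higher. Clec10a, a galactose-type lectin, was among the lower (-2.71 ± 0.28, edgeR adjusted p = 1.9e-05), and Esam (1.93 ± 0.20, edgeR adjusted p = 1.9e-05) and Ltb (1.39 ± 0.13, edgeR adjusted p = 9.8e-06) were the higher ones.

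Other C-type lectin receptors of myeloid cells were compared with the family. Of 23 tested in lymph node, 13 were lower in KI/+ AGF+ cells and 2 higher, with a median of -1.11, and in AireKO 14 were lower and 3 higher. The lectins with the smallest p were Clec4a2 (-3.06 ± 0.29, edgeR adjusted p = 1.1e-05), an inhibitory receptor, Clec9a and Clec10a (above) and Clec4a1 (-2.36 ± 0.26, edgeR adjusted p = 3.5e-05). In marrow 14 of 21 were lower and 6 higher, led by Clec12a (-4.98 ± 0.41, edgeR adjusted p = 6.9e-06), Clec5a (-3.82 ± 0.35, edgeR adjusted p = 1.3e-05) and Mgl2 (-2.82 ± 0.26, edgeR adjusted p = 1.4e-05). The Cd209 genes were not part of this list.

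Of 5 adhesion genes, among them Icam2 for the ICAM-2 named above, 3 were lower and 1 higher. The higher one, Icam1, is not among the DC-SIGN ligands named above. Icam2 was at -1.07 ± 0.33 (edgeR adjusted p = 0.0355), Ceacam1 at -0.91 ± 0.21 (edgeR adjusted p = 0.00739) and Itgb2 at -0.60 ± 0.15 (edgeR adjusted p = 0.0125) in KI/+ lymph node AGF+ cells, while Icam1 was higher (0.45 ± 0.15, edgeR adjusted p = 0.0428). Of 19 genes tested of signalling below lectin receptors, 8 were lower and 2 higher. The higher ones were Src, a tyrosine kinase (1.54 ± 0.19, edgeR adjusted p = 6.8e-05), and Ksr1, a kinase scaffold (0.79 ± 0.15, edgeR adjusted p = 0.00215). Lsp1, known from DC-SIGN signalling, gave -0.27 ± 0.17 and did not pass (edgeR adjusted p = 0.302). In marrow 3 of 19 were higher and 7 lower.

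The genes beside the cluster were compared to see whether the sort difference reached past it. Of 16 neighbours tested in lymph node, 2 were lower in KI/+ AGF+ cells and 0 higher, with a median of -0.10. That share was near the 11% of all genes called lower. Both are lectins next to Cd209a. Clec4g, the sinus endothelial lectin LSECtin at 3707064 to 3720651, gave -2.56 ± 0.60 (edgeR adjusted p = 0.00788). Fcer2a, the low-affinity IgE receptor CD23 at 3681737 to 3694175, gave -2.21 ± 0.34 (edgeR adjusted p = 4.3e-04). In marrow 5 of 15 neighbours were higher and 2 lower, with a median of 0.07, and Fcer2a went against the Cd209 genes. It stood at 0.213, 0 and 1.16 CPM in total DCs and at 19.2, 36.8 and 41.2 CPM in KI/+ AGF+ cells (6.03 ± 0.65, edgeR adjusted p = 3.6e-05). The interaction of sort with tissue passed for Fcer2a (-8.24 ± 0.76, edgeR adjusted p = 2.3e-07). Fcer2a is also a B cell marker, and 6 of 8 B cell markers tested were higher and 1 lower in marrow AGF+ cells, with summed levels of 257 to 301 CPM against 33.4 to 44.5 CPM in total DCs. Their part in the Fcer2a difference was not tested.

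**Figure D4:**
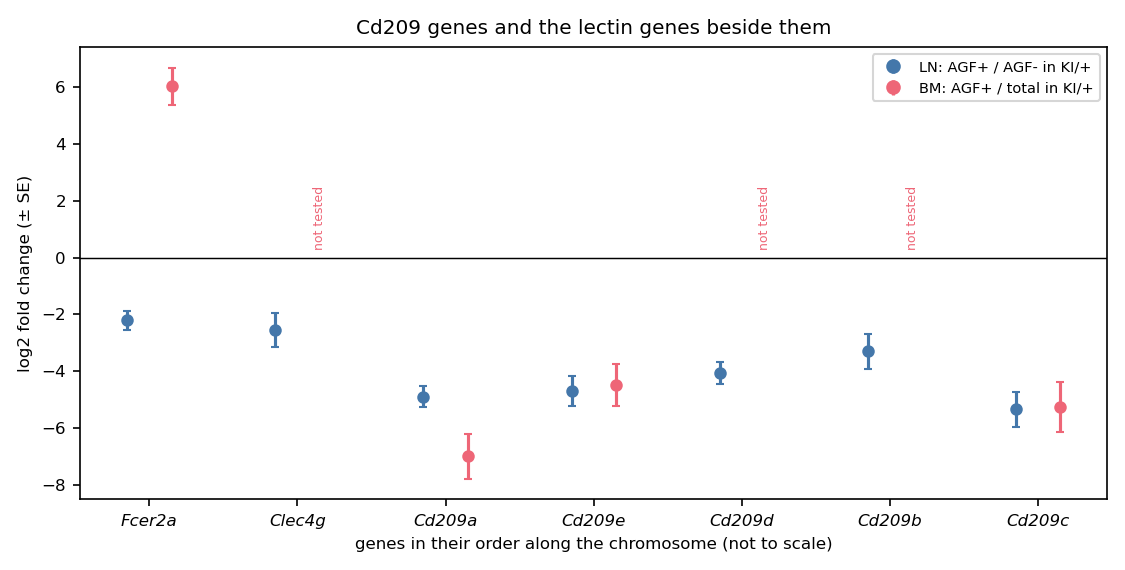
Log2 fold change (dots, with SE bars) of the Cd209 genes and of the lectin genes Fcer2a and Clec4g beside them, in their order along the chromosome and not to scale, for AGF+ against AGF- cells of lymph node and AGF+ cells against total DCs of marrow, both in KI/+ mice. In lymph node all 7 genes lie below 0. In marrow Cd209a, Cd209e and Cd209c lie below 0 and Fcer2a at 6.03 above it, and 3 genes were not tested.

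Of 3 paralogs looked for outside the set, 2 were found by symbol among the counted genes, and both were rare. Cd209h was not found, so no level is given for it. Cd209f had 25 counts in KI/+ AGF+ lymph node replicate 1 (3.94 CPM) and 0 in the other 2 libraries of that group, while lymph node AGF- libraries had 1 to 8 counts. Cd209g had 5 counts in that same AGF+ library and 0 in the other 2, and 0 to 11 counts in AGF- libraries. Both were at 0 in all 9 marrow libraries, and neither passed the filter. In that library Siglec1 was also the highest of its group, at 44.6 CPM against 8.36 and 4.36 CPM, and so was Cd209b, at 6.78 CPM.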

How the data were processed

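Libraries came from 1.0 ng of RNA with an integrity number over 7 (Ovation SoLo kit) and were sequenced as pairs of 150 bases, per the labels' protocols. HTSeq 0.11.2, STAR 2.7.3a, edgeR 3.38.1, fastp 0.20.0, Picard 2.21.1 and SAMtools 1.9 are the authors' tools, with GRCm38 (mm10) as build, per the submitters' processing notes. Each tool's role, the use of strand and the treatment of multiply mapped reads were not given in sources used here.

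Every test started from the authors' table of raw counts per gene (55471 genes, 21 libraries). The deposited normalized table (17265 genes) holds signal, namely each library's counts multiplied by a single factor (largest relative deviation 5.1e-15), and served as an alternative only. Identifiers were matched to GENCODE vM21, and 327 without a symbol held 0.0139% of counts.

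Tests used edgeR 4.0.16 (quasi-likelihood F test, TMM factors of 0.876 to 1.09, filterByExpr by group; calls at a Benjamini-Hochberg adjusted p below 0.05), run in R 4.3.3. Lymph node comparisons came from 1 fit of 12 libraries, marrow comparisons from 9 and comparisons between tissues from 21. Exon lengths are unions over transcripts. Coding sequences were aligned with MAFFT 7.526 and promoters with Biopython 1.88. Likeness was taken over genes with a group mean of at least 10 CPM, without predicted genes, pseudogenes and receptor segments, and the 8 closest per member were kept. From each list the up to 4 genes of smallest p in the KI/+ sort comparison are named, and the defining markers Ly6c2, Marco, Siglec1, Vsig4, Lyve1 and Prox1, the genes lowest in number 2, the gene Lsp1 and the markers of the gates were chosen after their values were seen. The members, the 14 lists and the rules were chosen with earlier results of these data known. Libraries of the same number deviated together within tissues (correlations of 0.10 to 0.47, above 0.1 before rounding) but not for every number between tissues, so the number was tried as a block. Alternatives were limma voom 3.58.1, DESeq2 1.42.0, other scalings and filters, fits of the compared groups only, and each library left out. No pair of replicates agreed within counting noise (chi-square per gene 4.46 to 20.3 over 21 pairs). The script was tested on simulated counts with known changes. Figures used matplotlib 3.10.9.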

Additional observations from a re-analysis of the deposited data

How the results depend on the processing

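The 13 member values of the sort comparisons kept their direction under every alternative, and 3 of 182 recomputed values lost their call, all for Cd209b in AireKO lymph node (largest adjusted p 0.0870). With the replicate block, 5, 5 and 3 members were called in the lymph node KI/+, lymph node AireKO and marrow sort comparisons, and no member call changed in any comparison. Without the filter on low counts, 4 members were called between tissues in AireKO AGF+ cells and 1, Cd209a, in the interaction of sort with tissue (2.06). With only the groups compared, 1 member was tested and called between tissues in AireKO AGF+ cells. Without the libraries numbered 2, 2 members were called between lymph node AGF- cells and total DCs. With 1 library left out at a time, 0 to 1 members passed the interaction of sort with tissue. The cause was not tested.

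Values that did not pass changed sign under some settings. Voom turned Cd209b between genotypes of AGF- cells to 0.11 and Cd209e between tissues in KI/+ AGF+ cells to 0.16, and without the libraries numbered 2 Cd209e was at 0.73 there and at -0.60 in AireKO. Leaving out single libraries gave, between genotypes of AGF+ lymph node cells, -0.72 to 0.48 for Cd209a, -0.47 to 1.24 for Cd209c and -0.35 to 0.78 for Cd209d. In AGF- cells it gave -0.35 to 0.44 for Cd209c and -0.82 to 0.06 for Cd209e. Between tissues Cd209e ran from -0.64 to 0.42 (KI/+ AGF+), from -0.05 to 4.25 (AireKO AGF+) and from -0.16 to 0.83 (AGF- against total DCs).

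Of all genes, 97 and 270 were called between genotypes of lymph node AGF+ and AGF- cells without the filter, against 2 and 1, and leaving out single libraries gave 2 to 7 and 1 to 89. Without the libraries numbered 2, 1942 were called between lymph node sorts of KI/+ against 3349, and 3858 against 6881 in marrow. Depth limits Cd209c and Cd209e in AGF+ cells and all members in marrow AGF+ cells, where 0 to 20 counts per group were found.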
